A study of Mus musculus with 6 samples.

Results

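Airn-Igf2r, Zrsr1-Commd1, Peg13-Trappc9 and Kcnq1ot1-Kcnq1 are 4 pairs of mouse genes in which an imprinted transcript lies inside a partner gene or runs antisense across it. Their 8 genes were taken from the count table by symbol, and all 8 were found among its 49585 genes. They were chosen by their annotation and by the measured difference between Zac1 and EGFP, in which Airn and Zrsr1 were already known to be lower. Every value of that difference is therefore given as a description. The count of members called is printed beside the share over all genes, but it does not test the members and supports nothing.

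The libraries were made from polyA RNA of AML12 cells, a line grown from hepatocytes of a mouse carrying a transforming growth factor alpha transgene. In 1 group of 3 libraries the cells had received an over-expression construct for Zac1, a zinc-finger regulator of transcription that is the product of Plagl1, itself imprinted. The 3 control libraries came from cells given the same kind of construct for EGFP, a fluorescent protein. Both groups were taken 24 h after transfection, RNA was treated with DNase, and a directional kit kept the strand of each RNA. The labels do not say whether the libraries are separate cultures. The p-values given here therefore measure only the spread between these libraries, which may be technical. All cells are of 1 line, and gene counts do not tell the maternal from the paternal copy.

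An imprinted gene is expressed from the copy of one parent, under the control of DNA methylation set in the egg or the sperm. Airn and Kcnq1ot1 are long non-coding RNAs made from the paternal chromosome. Each runs antisense to its partner, and in mouse tissues where the domain is imprinted each is required to silence neighbouring genes on that chromosome. Zrsr1 and Peg13 are also paternally expressed and lie inside a larger host gene, Zrsr1 as an inserted retrogene and Peg13 as a non-coding RNA best known from brain.

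The layout of the pairs decides which reads can be told apart. Positions are those of the GENCODE M21 annotation of GRCm38. Airn (ENSMUSG00000078247, chr17:12741311-12860136, plus strand) starts inside Igf2r (ENSMUSG00000023830, chr17:12682406-12769664, minus strand). Their spans overlap over 28354 bases, which is 23.9% of Airn and 32.5% of Igf2r, but they share 0 exonic bases. The annotated exons of Airn come to 3597 bases, or 3.03% of its span, and only 114 of these bases lie within Igf2r. Reads from the unspliced body of Airn thus fall mostly outside its annotated exons; whether counting was by exon is not given in the sources used here.

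Zrsr1 (ENSMUSG00000044068, chr11:22972005-22976496, plus strand) is a single exon of 4492 bases lying wholly inside Commd1 (ENSMUSG00000051355, chr11:22896136-22982382, minus strand). The pair has 412 exonic bases in common on opposite strands, 9.2% of Zrsr1 and 6.9% of Commd1. Peg13 (ENSMUSG00000106847, chr15:72805600-72810324) lies inside Trappc9 (ENSMUSG00000047921, chr15:72589620-73061204) on the same minus strand, with 0 exonic bases in common. Kcnq1ot1 (ENSMUSG00000101609, chr7:143203458-143296549, minus strand) is annotated as 1 unspliced exon of 93092 bases inside Kcnq1 (ENSMUSG00000009545, chr7:143106362-143427042, plus strand). It covers 1 of the 22 exon blocks of Kcnq1, and they share 121 bases.

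RefSeq (GRCm38.p6) gives a promoter window, from 250 bases before to 50 bases after the transcript start, for 5 of the 8 genes (6 windows, since Commd1 has 2 starts). The windows of the 3 imprinted transcripts with reads are printed because they hold the annotated starts of the antisense or nested RNA. Each covers only 300 bases, so the CpG counts below describe these windows and not any wider control region. Capitals mark the CpG dinucleotides, the sites of DNA methylation.
Airn, chr17:12741061-12741360, plus strand: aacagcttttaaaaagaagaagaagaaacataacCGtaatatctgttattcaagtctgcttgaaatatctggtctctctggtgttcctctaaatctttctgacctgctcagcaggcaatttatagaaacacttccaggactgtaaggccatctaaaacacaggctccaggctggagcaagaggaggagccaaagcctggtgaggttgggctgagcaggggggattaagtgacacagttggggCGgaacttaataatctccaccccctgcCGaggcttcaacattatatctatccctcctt
Zrsr1, chr11:22971755-22972054, plus strand: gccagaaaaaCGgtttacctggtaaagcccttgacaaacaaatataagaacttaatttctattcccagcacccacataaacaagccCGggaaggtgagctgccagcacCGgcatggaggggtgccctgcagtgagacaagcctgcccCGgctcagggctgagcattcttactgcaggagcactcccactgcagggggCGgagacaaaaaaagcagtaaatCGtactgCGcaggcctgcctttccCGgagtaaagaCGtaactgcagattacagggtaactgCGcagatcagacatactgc
Kcnq1ot1, chr7:143296498-143296797, minus strand: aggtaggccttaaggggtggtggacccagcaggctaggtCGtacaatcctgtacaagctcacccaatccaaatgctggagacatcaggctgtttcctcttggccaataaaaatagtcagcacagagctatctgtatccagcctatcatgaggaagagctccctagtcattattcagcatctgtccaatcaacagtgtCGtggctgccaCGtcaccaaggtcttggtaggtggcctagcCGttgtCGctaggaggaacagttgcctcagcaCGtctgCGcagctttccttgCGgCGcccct
The Airn window held 3 CpG, more than 23.3% of the 32851 promoter windows in the RefSeq table, whose median was 7. Zrsr1 held 10, more than 56.5% of windows, and Kcnq1ot1 held 9, more than 54.2%. The window of the partner Igf2r held 34, more than 92.3%, and those of Commd1 held 18 and 17. The second Commd1 window (chr11:22972817-22973116) lies within the body of Zrsr1.

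Zac1 is known to bind GC-rich DNA, with GGGGCCCC as the palindromic form of its motif. These letters, which read the same on both strands, were in 354 of all windows (1.08%) and in none of the 6 member windows. The shorter GGGGCC or its reverse complement GGCCCC, both of which the long form contains, was in 8204 windows (25.0%). Among the member windows it occurred once, in the first window of Commd1. A match is only a description of the letters, and its absence says nothing about binding.

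Total counts ran from 14801240 to 18302538 per library. The over-expressed gene checked the labels: Plagl1 was at 4.14 ± 1.39 CPM with EGFP and 7530 ± 810 CPM with Zac1 (mean ± SD, n = 3), where CPM is reads scaled to a common library size. Of 20 hepatocyte markers, 13 were at 1 CPM or more in every library. The list summed to 5040 to 5370 CPM in EGFP and 5150 to 5570 CPM in Zac1. Most of the sum came from Krt8, Krt18 and Apob, at 1750, 1580 and 1350 CPM in EGFP. Alb was at 34.6 CPM in EGFP, where Apoa1, Serpina1a and Fgb were at 0.938, 0.827 and 0.826 CPM. Tat, Cps1 and Trf were lower still. Ttr and Hp were lower and Prox1 higher in Zac1 by edgeR (adjusted p = 0.000211, 0.0303 and 0.0019). The bile duct list summed to 678 to 717 and 654 to 685 CPM, with 5 of 6 markers at 1 CPM or more in all libraries. Stellate cell or fibroblast markers summed to 0.604 to 1.01 CPM in EGFP and 2.24 to 2.72 CPM in Zac1, with Lrat and Dcn at 0 and Col1a1 the only one of the 7 tested (higher in Zac1, edgeR adjusted p = 0.0164). Endothelial markers summed to 0.604 to 0.945 CPM in EGFP and 0.996 to 1.58 CPM in Zac1, also with no overlap. Immune markers summed to 2.29 to 2.68 and 2.3 to 3.04 CPM, with Clec4f and Cd3e at 0 and Csf1r at 0 reads in each EGFP library and 7, 4 and 19 reads in Zac1. The part of these 3 lists in the values below was not tested.

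Whether the counts keep the strands apart bears on every antisense pair, and no source used here states the counting option. Among named protein-coding genes with no exonic base in another gene, 51.1% of 14204 had at least 60 reads over the 6 libraries. Where 60% to under 90% of the exonic bases lay in exons on the opposite strand alone, the share was 62.3% of 53 genes. With as much overlap on the same strand alone it was 5.8% of 52 genes. At 90% or more, 6 of 20 opposite-strand genes reached 60 reads and 0 of 31 same-strand genes did. Med10, Pdcd2 and Slirp, picked after their values were seen, had 4340, 2468 and 1680 reads with at least 92.8% of their exonic bases inside opposite-strand exons. Many genes covered on the opposite strand thus kept reads, and most genes covered on the same strand were at or near 0.

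**Figure D1:**
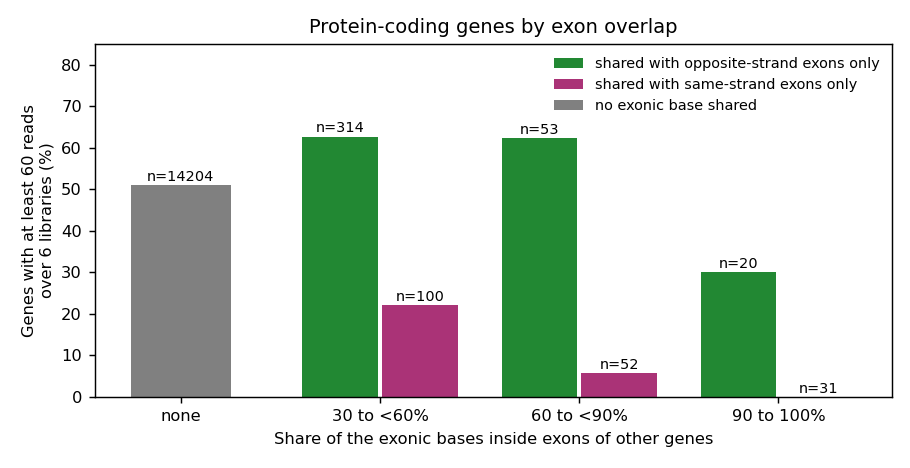
Percent of protein-coding genes with at least 60 reads over the 6 libraries (vertical axis) by the share of their exonic bases that lies in exons of other genes (horizontal axis). Green bars are genes overlapped on the opposite strand only, purple bars on the same strand only, the grey bar genes with no overlap, and n is the number of genes. Purple bars fall from 22.0% to 0.0% with overlap, while the first green bars are at 62.7% and 62.3% and the last, at 6 of 20 genes, is lower.

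Of the 8 genes, 5 had the mean count of at least 10 that the comparison needed (Airn, Igf2r, Zrsr1, Trappc9 and Kcnq1ot1), and Commd1, Peg13 and Kcnq1 did not. The edgeR comparison across all genes called 2 of the 5, Airn and Zrsr1, both lower in Zac1, as was known when they were listed; 3.78% of all 12130 genes tested were called, 0.668% lower and 3.12% higher. The count of 2 was 0 without EGFP replicate 2, Zac1 replicate 5 or Zac1 replicate 6, and 1 without EGFP replicate 3. The groups did not overlap for 3 of the 5, all lower in Zac1, against 20.6% of all tested genes in either direction and 8.75% lower. All 5 log2 fold changes were below 0, with a median of -0.14, beside -0.002 and 50.5% below 0 over all tested genes. Nothing is read from these counts, since the genes were listed with the comparison known. In bulk libraries, fewer cells making a transcript and less of it per cell cannot be told apart.

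Airn is the non-coding RNA of the Igf2r domain. Its counts were 283, 356 and 321 in EGFP replicates 1, 2 and 3, or 18.8, 23.9 and 21.7 CPM. In Zac1 replicates 4, 5 and 6 they were 285, 272 and 259, or 17.7, 16.0 and 14.1 CPM. Every Zac1 library was below every EGFP library, with EGFP 1 and Zac1 4 the closest pair. The group means were 21.5 ± 2.53 and 15.9 ± 1.83 CPM (± SD, n = 3), and the log2 fold change was -0.43 (SE 0.11), or 1.35-fold lower. The relative SD of 11.8% in EGFP was wider than the 5.59% that counting error alone gives. When single libraries were left out the log2 fold change ran from -0.52 to -0.35.

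Igf2r encodes the cation-independent mannose 6-phosphate receptor, which carries lysosomal enzymes to the lysosome and takes up insulin-like growth factor 2 for degradation. It was read 1254, 1158 and 1129 times in EGFP (83.4, 77.7 and 76.2 CPM) and 1190, 1219 and 1295 times in Zac1 (74.0, 71.5 and 70.4 CPM). Here too every Zac1 library was below every EGFP library. The group means were 79.1 ± 3.83 and 72.0 ± 1.87 CPM (± SD, n = 3), and the log2 fold change was -0.14 (SE 0.06).

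Zrsr1 encodes a zinc-finger protein related to the small subunit of the splicing factor U2AF. Its counts were 285, 321 and 259 in EGFP (19.0, 21.5 and 17.5 CPM) and 227, 252 and 263 in Zac1 (14.1, 14.8 and 14.3 CPM). The groups did not overlap, and the Zac1 libraries lay closer together than the EGFP libraries. The group means were 19.3 ± 2.05 and 14.4 ± 0.345 CPM (± SD, n = 3), and the log2 fold change was -0.42 (SE 0.1), or 1.34-fold lower. The relative SD was 10.6% in EGFP and 2.4% in Zac1, where counting error alone gives 5.89% and 6.36%, so the small Zac1 spread is below the counting error. When single libraries were left out the log2 fold change ran from -0.5 to -0.34.

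Zrsr2, the X-linked relative of Zrsr1, was checked for shared reads. It had 41.0, 42.9 and 37.6 CPM in EGFP and 41.6, 42.9 and 38.9 CPM in Zac1. These ranges overlapped almost wholly (40.5 ± 2.7 and 41.1 ± 2.03 CPM, SD, n = 3). Of the 4443 stretches of 50 bases in Zrsr1, 0 occurred in Zrsr2, while 317 (7.13%) occurred in Commd1, where the 2 genes overlap. Zrsr1 stood at 46.3%, 50.2% and 46.5% of the CPM of Zrsr2 in EGFP and at 34.0%, 34.5% and 36.7% in Zac1. This ratio, chosen after the values were seen, did not overlap between the groups (log2 ratio -1.07 ± 0.07 and -1.51 ± 0.06, SD, n = 3).

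Commd1, the host of Zrsr1, encodes a protein of copper export and endosomal sorting. It was read 10, 8 and 9 times in EGFP and 11, 13 and 5 times in Zac1, too few to be tested. The summed counts of 27 and 29 gave a ratio of 0.933 at matched depth (95% Clopper-Pearson interval 0.533 to 1.64, counting error only). At this depth no difference was detectable. Over all 6 libraries Commd1 stood at 0.0991 CPM per kilobase of exon, below the whole range of the 9 other COMMD genes in the table, 2.89 (Commd10) to 28.5 (Commd3), with a median of 9.44.

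The annotation gives Commd1 an overlapping neighbour on its own strand. Gm28048 (ENSMUSG00000098650, chr11:22834744-22982090) is a read-through model, and 99.9% of its exonic bases are also exonic in B3gnt2 (89.2%) or Commd1 (10.7%). It takes 5.0% of the merged exonic bases of Commd1, and between 2.5% and 62.7% of each of the 6 annotated Commd1 transcripts. Its span, introns included, covers nearly all of the span of Commd1. Had counting gone by whole gene spans, most Commd1 reads could have been discarded, and the counted feature is not given. The Commd1 level set beside the other COMMD genes is therefore a level of counted reads only. Gm28048 had 0 reads in all 6 libraries, and so did B3gnt2, which shares 65.5% of its exonic bases on the same strand. The part of this overlap in the low Commd1 count was not tested. The ratio of Zrsr1 to Commd1 is uncertain for the same reason.

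Peg13 had 0 reads in every library. A count of 0 allows up to 3 reads, or 0.067 CPM over the EGFP group, 0.0582 CPM over the Zac1 group and 0.0312 CPM over all 6 libraries (counting error only). This limits the reads that were counted: had counting gone by whole gene spans, every Peg13 read would also have lain in Trappc9 on the same strand and could have been discarded, and the feature that was counted is not given in the sources used here. Other listed genes with no exonic base shared on the same strand, among them Slc22a2, Kcnk9, Trappc2l and Mcts2, were likewise at 0 in every library. The reason was not tested for any of them. None of the exonic bases of Peg13 is shared with another gene, and 0 of its 4676 stretches of 50 bases occur elsewhere in the annotated transcripts.

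Trappc9, the host of Peg13, encodes a subunit of the TRAPP complexes, which tether vesicles on the way through the Golgi. It had 641, 565 and 573 reads in EGFP (42.7, 37.9 and 38.7 CPM) and 621, 659 and 720 in Zac1 (38.6, 38.7 and 39.1 CPM). The Zac1 values fell within the EGFP range, which EGFP replicate 1 alone widened upward. The group means were 39.7 ± 2.55 and 38.8 ± 0.273 CPM (± SD, n = 3), and the log2 fold change was -0.03 (SE 0.07) that became 0.02 without EGFP replicate 1 and 0.03 without EGFP replicate 1 and Zac1 replicate 4.

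Kcnq1ot1, the non-coding RNA of the Kcnq1 domain, was read 161, 135 and 131 times in EGFP (10.7, 9.06 and 8.84 CPM) and 150, 157 and 138 times in Zac1 (9.33, 9.21 and 7.5 CPM). The groups overlapped, with the highest value in EGFP 1 and the lowest in Zac1 6. The group means were 9.54 ± 1.02 and 8.68 ± 1.03 CPM (± SD, n = 3), and the log2 fold change was -0.14 (SE 0.13).

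Kcnq1, a voltage-gated potassium channel, had 3, 4 and 2 reads in EGFP and 7, 9 and 12 in Zac1. These were 0.2, 0.268 and 0.135 CPM against 0.436, 0.528 and 0.652 CPM, with no overlap, and here the Zac1 libraries were the higher ones. The summed counts of 9 and 28 gave a ratio of 2.7 (95% Clopper-Pearson interval 1.24 to 6.51, counting error only). That interval leaves out the spread between libraries. With no filter on low counts Kcnq1 was not called (log2 fold change 1.4, edgeR adjusted p = 0.277). Kcnq1 shares 3.0% of its exonic bases with Kcnq1ot1 on the opposite strand.

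**Figure D2:**
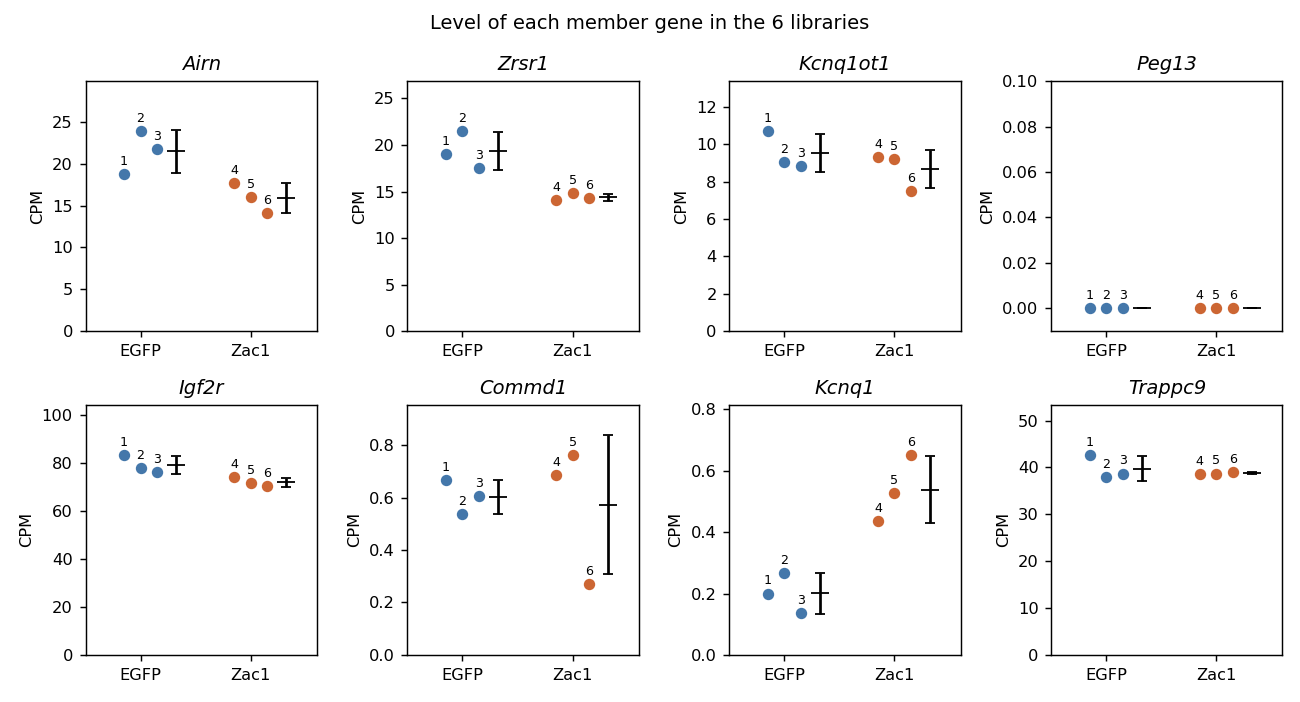
Level in CPM (vertical axis, a separate linear scale for each gene) of the 8 genes in EGFP (blue) and Zac1 (orange), with 1 point per library and the mean ± SD of 3 libraries. Airn, Igf2r and Zrsr1 have no overlap with Zac1 lower, Kcnq1 has none with Zac1 higher on 2 to 12 reads a library, and Peg13 is at 0.

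Levels of different genes were compared per kilobase of merged exons (CPM per kb). This assumes that reads were counted by exon, and the counted feature is not given in the sources used here. It also assumes that reads cover the whole exon length. For a long unspliced RNA such as Kcnq1ot1 in polyA libraries, gene counts do not show this. Exons make up 3.03% of the span of Airn but the whole span of Zrsr1. Had whole gene spans been counted, these levels would be divided by the wrong length, and the order could differ. In EGFP the order was Igf2r at 8.5 ± 0.411, Airn at 5.97 ± 0.704, Trappc9 at 5.01 ± 0.321 and Zrsr1 at 4.3 ± 0.457 (SD, n = 3). Far below came Kcnq1ot1 at 0.102 ± 0.011, Commd1 at 0.102 ± 0.0109 and Kcnq1 at 0.0491 ± 0.0163, and then Peg13 at 0. Neighbours whose libraries overlapped were Airn and Trappc9, Trappc9 and Zrsr1, and Kcnq1ot1 and Commd1.

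In Zac1, Igf2r was again highest at 7.73 ± 0.201 CPM per kb, followed by Trappc9 at 4.89 ± 0.0344, Airn at 4.43 ± 0.509 and Zrsr1 at 3.21 ± 0.0769. Trappc9 and Airn overlapped there. Among the low genes Kcnq1 (0.132 ± 0.0265), Commd1 (0.0965 ± 0.0445) and Kcnq1ot1 (0.0933 ± 0.011) followed, with overlap between neighbours in that order. Under the same assumption of counting by exon, the order still depends on the exon model. Over all 6 libraries Airn was at 5.2 CPM per kb of merged exons and at 13.6 per kb of its longest annotated transcript. Trappc9 was at 4.95 and 8.67, and Igf2r at 8.12 and 8.5, so that both Airn and Trappc9 stood above Igf2r by the longest transcript.

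**Figure D3:**
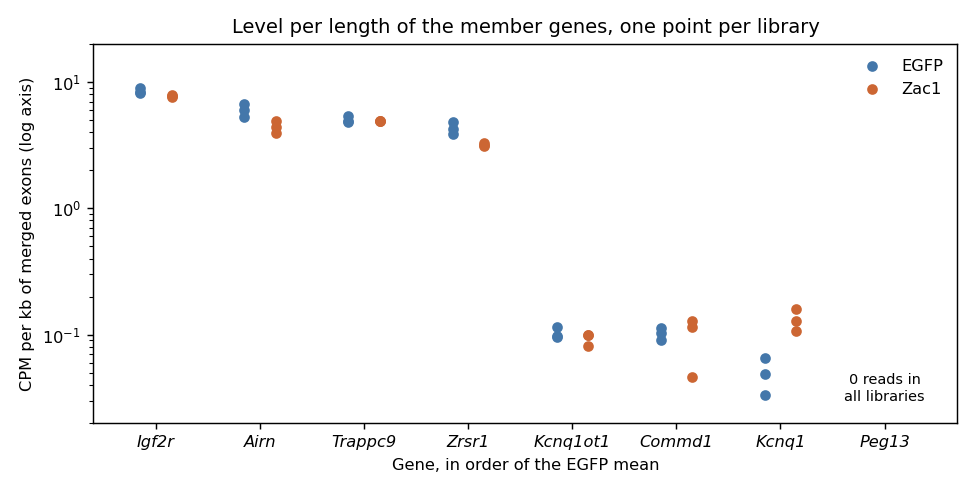
CPM per kb of merged exons (vertical log axis) for each library, in EGFP (blue) and Zac1 (orange), with the genes in order of their EGFP mean. Igf2r, Airn, Trappc9 and Zrsr1 lie between 3.14 and 8.96, Kcnq1ot1, Commd1 and Kcnq1 between 0.033 and 0.159, and Peg13, at 0, cannot be drawn on a log axis.

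Within a library, the ratio of the imprinted transcript to its partner does not depend on the library total. The log2 ratio of Airn to Igf2r (CPM) was -2.15, -1.7 and -1.81 in EGFP and -2.06, -2.16 and -2.32 in Zac1. EGFP replicate 1 fell within the Zac1 range, so the groups overlapped although each gene taken alone did not. The mean log2 ratio was -1.89 ± 0.23 and -2.18 ± 0.13 (SD, n = 3), a difference of -0.29 that was -0.48 without EGFP 1 and Zac1 4. Among 1378 pairs of tested genes that overlap on opposite strands, 341 (24.7%) had log2 fold changes at least as far apart as those of Airn and Igf2r.

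For Zrsr1 over Commd1 the log2 ratio was 4.83, 5.33 and 4.85 in EGFP and 4.37, 4.28 and 5.72 in Zac1, with overlap. Its spread of 0.81 (SD, n = 3) in Zac1 came with Commd1 counts as low as 5. For Kcnq1ot1 over Kcnq1 it was 5.75, 5.08 and 6.03 in EGFP and 4.42, 4.12 and 3.52 in Zac1, with no overlap and a difference of -1.6. That difference rests on 2 to 12 Kcnq1 reads a library, and with 1 CPM added to both genes it was -0.48. Per kilobase of merged exons, Kcnq1ot1 stood at 2.16 times Kcnq1 in EGFP and at 0.715 times in Zac1. This assumes counting by exon and reads along the whole 93092 bases of Kcnq1ot1, which gene counts do not show. No ratio could be formed for Peg13.

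**Figure D4:**
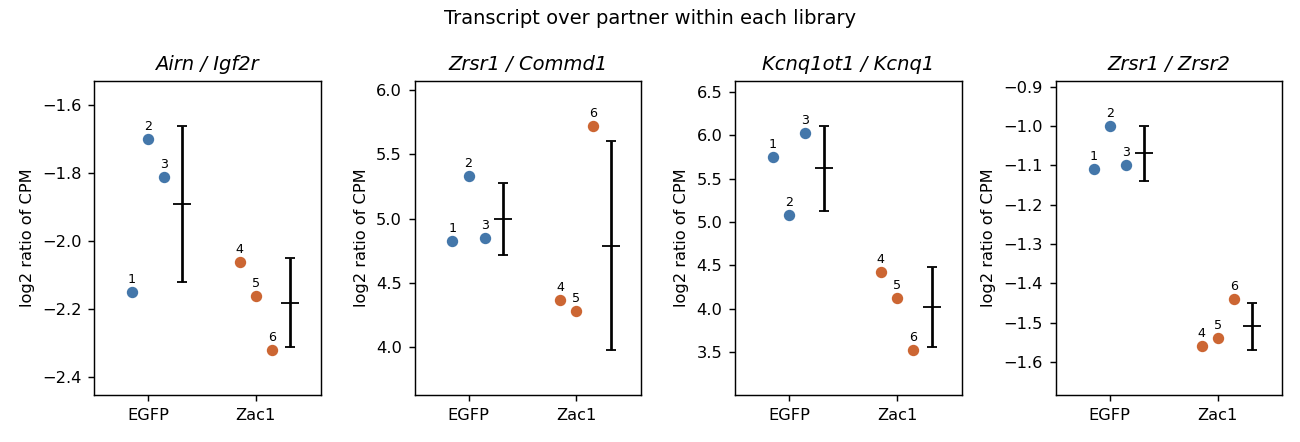
The log2 ratio of CPM of the imprinted transcript over its partner (vertical axis), and of Zrsr1 over its relative Zrsr2, in each library of EGFP (blue) and Zac1 (orange), with the mean ± SD of 3 libraries. The groups overlap for Airn over Igf2r and Zrsr1 over Commd1 and do not overlap for Kcnq1ot1 over Kcnq1 and Zrsr1 over Zrsr2. Kcnq1 had 2 to 12 reads a library, and the ratio to Zrsr2 was added after the values were seen.

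For each imprinted transcript that was tested, the genes of most similar pattern were sought by Pearson's r of log2 CPM over the 6 libraries, among 9911 genes whose mean count was 50 or more. Airn was closest to Vldlr (r = 0.989), Hnrnph3 (0.987) and Ftsj1 (0.983). Zrsr1 was closest to Gpkow (0.997), Kif16b (0.987) and Ccdc171 (0.985), and Kcnq1ot1 to Hspbap1 (0.997), Gcnt1 (0.996) and Adam9 (0.986). An r of at least 0.95 was found for 38, 26 and 34 genes with Airn, Zrsr1 and Kcnq1ot1. All of these values come from the same 6 libraries. In a search of 9911 genes over 6 values each, such r can arise between unrelated genes. The number to be found without any relation was not computed, so nothing is read from these counts. None of the named genes was called (edgeR adjusted p = 0.113 to 0.755).

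The genes around the pairs were read from lists. Of 26 neighbours in the 4 chromosomal domains, 15 were tested, with a median log2 fold change of -0.04. By edgeR 0 of the 15 were called, beside 3.78% of all 12130 tested genes. At that share a list this short may well hold no call, so nothing is read from the 0. The smallest p-values belonged to neighbours in the Kcnq1 domain: the placental growth restrainer Phlda2 went from 0.693 ± 0.155 to 1.5 ± 0.333 CPM (SD, n = 3) and was not past the threshold (log2 fold change 1.12, SE 0.33, edgeR adjusted p = 0.0827). Tssc4 was at 25.5 ± 1.74 and 30.2 ± 1.66 CPM (0.24, SE 0.08, edgeR adjusted p = 0.131). Slc22a2 and Slc22a3, which Airn is known to silence in the placenta, were at 0 in every library, so silencing of them could not be read here.

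Of 23 genes at other imprinted loci, many of them in nested or antisense pairs, 14 were tested and 1 was called. This was the over-expressed Plagl1 itself, whose call was fixed by the construct. In the lists of the partners' pathways 0 genes were called by edgeR, beside the same 3.78% of all tested genes. These lists held 11 tested COMMD and CCC complex genes, 12 TRAPP genes, 13 genes of the mannose 6-phosphate pathway and 6 U2AF-related splicing factors. With lists this short, nothing is read from the 0 calls. The median log2 fold changes of these lists were -0.1, -0.04, -0.02 and -0.02. Values with the smallest p in each were -0.12 for Commd3 (SE 0.06, edgeR adjusted p = 0.324), -0.1 for Trappc13 (SE 0.07, edgeR adjusted p = 0.506), -0.08 for the lysosomal protease Ctsb (SE 0.04, edgeR adjusted p = 0.419) and -0.09 for Sf3b1 (SE 0.06, edgeR adjusted p = 0.499). Next to them were Ccdc93 (-0.1), Trappc6b (-0.1), M6pr, the other mannose 6-phosphate receptor (-0.08), and U2af1 (-0.04). The 8 KCNQ channels and KCNE subunits had too few reads for any test, with a summed level of 0.872 to 1.13 CPM in EGFP and 1.06 to 1.94 CPM in Zac1.

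Among 17 tested factors that set or keep imprints, 1 was called, beside 3.78% of all tested genes (3.12% higher). Nothing is read from this count. Dnmt3b, a DNA methyltransferase that adds new methyl marks, rose from 2.46 ± 0.238 to 5.23 ± 0.339 CPM (SD, n = 3). This was a log2 fold change of 1.09 (SE 0.17, edgeR adjusted p = 0.00216), or 2.13-fold. It was higher in all 3 Zac1 libraries than in any EGFP library and past the threshold in all 16 alternatives, which draw on the same libraries. DNA methylation at the pairs was not measured in these data, and a link between Dnmt3b and the pairs was not tested.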

How the data were processed

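The deposited file holds read counts of each gene in 6 libraries, which the authors did not pool. Its name says normalized, yet the values are whole, the totals unequal and 0 of the integers from 1 to 40 absent in any library, so they were used as raw counts. FastQC, STAR, HTSeq and DESeq2 were used per the submitters' processing notes. Not given in the sources used here were versions, genome build, annotation and the strand option of counting. Symbols (49326 of 49585 genes) and gene models came from GENCODE M21 (GRCm38).

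The 12130 genes whose mean count reached 10 were scaled by TMM. They were compared as Zac1 minus EGFP with edgeR 4.0.16 (R 4.3.3), by its two-sided quasi-likelihood F test. P-values were adjusted by Benjamini-Hochberg, with a threshold of 0.05. The fit was also run on simulated counts. Changes set there were larger than those of the called members, so that run does not bear on calls of their size. CPM used TMM-scaled totals. The depth of 14801240 to 18302538 counts sets the limit of 3 counts for a gene at 0 and the 95% exact intervals, which cover counting error only. Libraries within a group differed beyond counting error (chi-square per degree of freedom 2.31 to 8.98). Alternatives were other scalings, filters, robust variance, limma 3.58.1, DESeq2 1.42.0, GC offsets and leaving out libraries.

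The members, the lists and the alternatives were chosen with earlier results of these data known. Named genes are the members, Plagl1, up to 4 called genes per list (or the 2 with the smallest p), and the 3 genes most like each tested imprinted transcript. The ratio of Zrsr1 to Zrsr2 was added after the values were seen. A marker that this rule would name is not reported here.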

Additional observations from a re-analysis of the deposited data

How the results depend on the processing

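The number of members called was 2 and became 1 with upper-quartile scaling, library totals only, a mean count of at least 50 and limma on log2(CPM + 1), and ranged from 0 to 2 when 1 library was left out. The number of all genes called was 459; it was 979 with no filter on low counts, 241 with a mean count of at least 50, 1461 without EGFP 1 and Zac1 4 together, and 206 to 963 when 1 library was left out. Over the 16 alternatives the log2 fold change ran from -0.6 to -0.35 for Airn and from -0.5 to -0.34 for Zrsr1. Their groups did not overlap, so leaving out libraries could hardly change the sign, and nothing is read from its stability. Trappc9 was at -0.03, ranged from -0.07 to 0.02 when 1 library was left out (0.02 without EGFP replicate 1) and was 0.03 without EGFP 1 and Zac1 4 together. Phlda2 and Tssc4 passed the threshold in 3 and 2 alternatives. The difference in log2 ratio ran from -0.42 to -0.2 for Airn over Igf2r, from -0.68 to 0.04 for Zrsr1 over Commd1 and from -1.87 to -1.35 for Kcnq1ot1 over Kcnq1 when 1 library was left out. It was -0.48 for Airn over Igf2r without EGFP 1 and Zac1 4, and -0.48 for Kcnq1ot1 over Kcnq1 with 1 CPM added. Per kb of the longest transcript, Airn was at 13.6, Trappc9 at 8.67 and Commd1 at 0.13 CPM. No setting divided the levels by whole gene spans. Apart from settings that change which genes or libraries are used, the cause of these differences was not tested. No paired analysis was possible because the EGFP libraries carry the numbers 1, 2 and 3 and the Zac1 libraries 4, 5 and 6, so the groups share no number. Depth limits Commd1, Kcnq1 and Peg13, which had at most 13 reads in a library. For Commd1 and Peg13 the counted feature, which is not given, may also limit the reads.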
